A study of Mus musculus with 8 samples.

Results

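The genes described here encode the motors that carry cargo along microtubules, measured by RNA sequencing in the striatum of Dclk3 knockout (KO) and wild type (WT) mice. They were chosen by name: protein-coding genes whose symbol is Kif followed by a digit, or starts with Klc, Dync or Dctn. The rule gave 56 genes, of which 55 had a row among the 31417 genes of the count table and 51 passed the filter on low counts, out of 16511 genes tested. The expression of Kif2b was not analysed here. Kif1bp met the rule by its spelling but encodes a kinesin-binding protein, not a motor. The ciliary dynein subunits Wdr34 and Wdr60 and the kinesins Kifc1, Kifc2 and Kifc3 lie outside the rule under these symbols.

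The KO group held 4 libraries labelled Dclk3 KO and the WT group held 4 libraries labelled as wild type controls of the knockout, all from adult mice aged 12 months. Each library came from a single striatum, the forebrain input nucleus of the basal ganglia, and was made from poly(A) RNA with a stranded kit. The labels name no strain, sex or kind of Dclk3 allele and do not say whether the libraries came from separate animals, so p-values measure only the spread between these libraries. Dclk3, a kinase gene of the doublecortin-like family, had 27.7, 19.6, 20.9 and 22.7 CPM (counts scaled to a common library size) in KO libraries 1 to 4, against 95.2, 117, 80.9 and 86.1 CPM in WT libraries 1 to 4. Libraries held 24441242 to 37145559 counts, so that 3 counts, the limit that a count of 0 allows, stood for 0.0822 to 0.123 CPM. All 8 marker genes of striatal spiny neurons were detected, and their summed level was 2809 to 3239 CPM in KO and 2869 to 3466 CPM in WT libraries. WT library 4 stood apart in choroid plexus markers, which summed to 2864 CPM there, against 48.5 to 236 CPM in KO libraries and 37.7 to 86.5 CPM in the other WT libraries.

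Kinesins and dynein use ATP to walk along microtubules. Most cargo kinesins move towards the plus ends, which point away from the cell body in axons, while cytoplasmic dynein, together with its cofactor dynactin, moves towards the minus ends and carries endosomes and signals back to the cell body. Another set of kinesins builds and moves the mitotic spindle and is known mainly from dividing cells, and a further set works in cilia. In spiny neurons, which send long axons out of the striatum, the cargo motors serve transport of vesicles, mitochondria and cytoskeleton.

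No motor gene passed the test between KO and WT striatum. The 51 tested genes held 0 calls in the edgeR quasi-likelihood test at an adjusted p under 0.05, where 0.00606% of all tested genes (1 gene, Dclk3) were called, and the smallest adjusted p of any motor gene was 0.999. Of the 51, 1 gene (Kif5b, higher in KO) had an unadjusted p under 0.05, where 3.76% of all tested genes did (1.96% higher and 1.79% lower in KO). Among the 51, 0 had KO and WT libraries that did not overlap, where 1.93% of all tested genes did (1.07% higher and 0.86% lower in KO). Kif18b, which did not pass the filter on low counts, had all 4 KO libraries below all 4 WT libraries, at 0 to 4 counts in KO. Of the 51, 20 had log2 fold changes (KO over WT) above 0 and 31 below, with a median of -0.009, beside 49.5% of all tested genes above 0 and a median of -0.001. For 41 of the 51 the 95% confidence interval of the fold change lay inside 1.5-fold in either direction, which held for 77.8% of all tested genes.

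**Figure D1:**
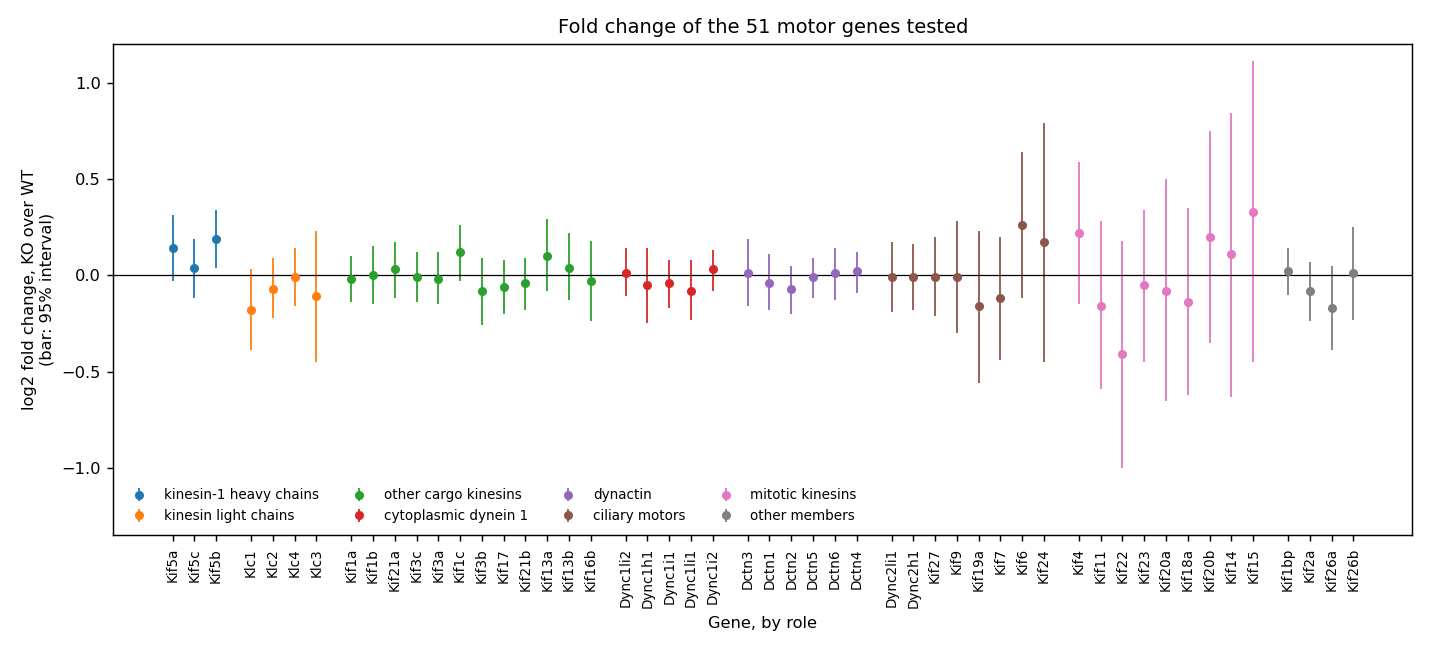
Log2 fold change (KO over WT) of each tested motor gene by role, with its 95% confidence interval from the edgeR fit. The axonal motors lie close to 0 with short intervals, from -0.18 for Klc1 to 0.19 for Kif5b, while the mitotic kinesins spread from -0.41 for Kif22 to 0.33 for Kif15 with long intervals.

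The clearest pattern in the levels was the gap between axonal motors and mitotic kinesins, present in every library. To compare genes, CPM were divided by the length in kilobases of all annotated exons together (CPM per kb). The 30 axonal motors (kinesin-1 heavy and light chains, other cargo kinesins, dynein 1 and dynactin) had a median level of 33.3 ± 0.776 CPM per kb in KO and 33.4 ± 1.44 in WT libraries (SD, n = 4 each). The 11 mitotic kinesins had a median of 0.124 ± 0.0116 CPM per kb in KO and 0.139 ± 0.0232 in WT libraries. The ranges did not meet: the lowest axonal motor, Klc3, averaged 1.52 CPM per kb over the 8 libraries and the highest mitotic kinesin, Kif4, 0.379. The gap holds for the sets as listed here. Kif2a, a depolymerizing motor like the mitotic Kif2c, was placed in neither set. It averaged 11.1 CPM per kb, within the axonal range. Library by library, the median axonal level was 297, 276, 257 and 246 times the median mitotic level in KO libraries 1 to 4 and 281, 207, 211 and 280 times in WT libraries 1 to 4, so the KO and WT values overlapped.

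**Figure D2:**
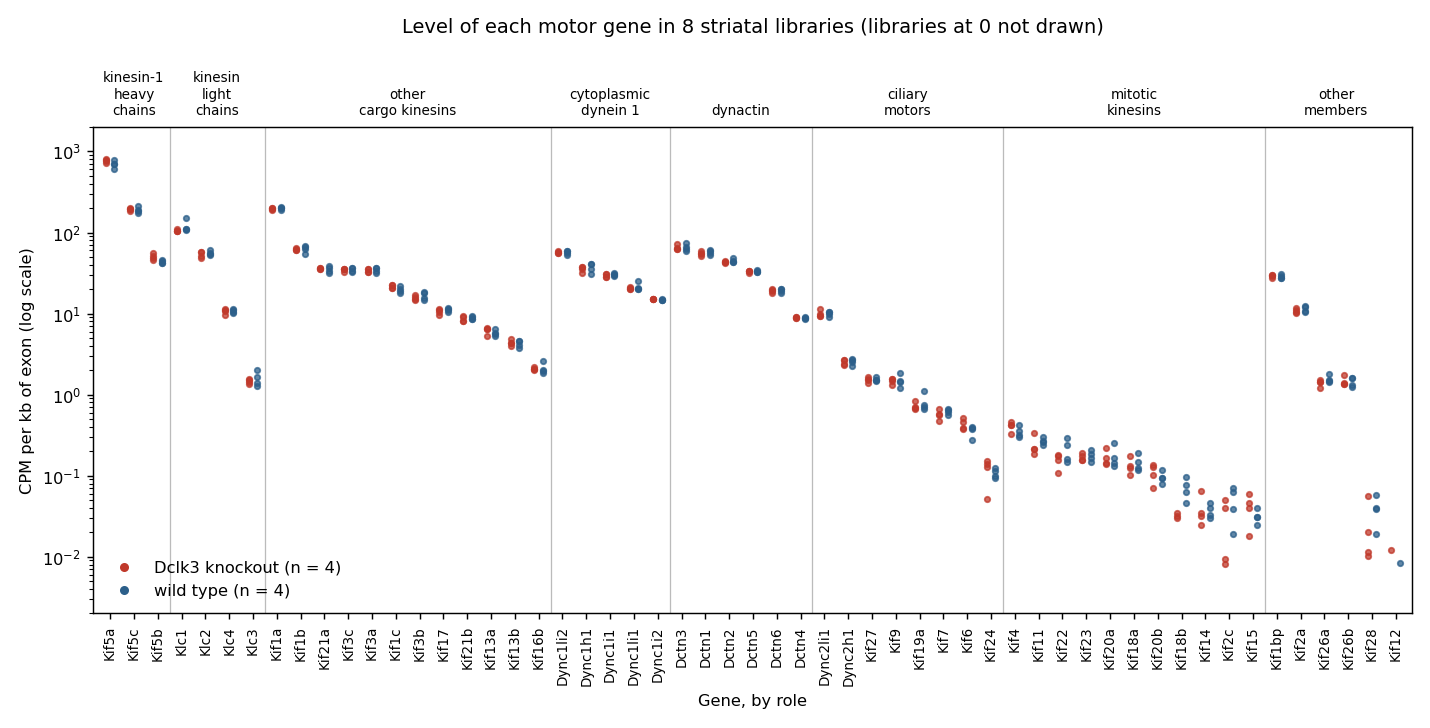
Level of each motor gene in CPM per kb of exon length (log axis), by role, with 1 point for each of the 4 KO and 4 WT libraries (libraries at 0 are not drawn). Kif5a lies highest with a mean of 734 over all 8 libraries, and every axonal motor lies above the mitotic kinesins.

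The promoters of members of both sets are shown to set out which cell cycle motif letters they hold. The letters searched, on both strands, were TTTGAA, the cell cycle genes homology region (CHR) known from promoters of genes expressed late in the cell cycle, and CCAAT, a box found in many promoters. The windows, from RefSeq on GRCm38.p6, run from 250 bases before to 50 bases after the annotated start, and capitals mark the matches, which do not overlap each other in the windows printed. They are Kif4 at chrX:100625815-100626114 (plus strand), Kif11 at chr19:37376132-37376431 (plus strand) and Kif23 at chr9:61946750-61947049 (minus strand), which encode a chromosome-arm motor, a spindle-pole-separating motor and a motor of cytokinesis, and, from the axonal side, Kif5c at chr2:49619036-49619335 (plus strand) and Dync1h1 at chr12:110601145-110601444 (plus strand).
Kif4: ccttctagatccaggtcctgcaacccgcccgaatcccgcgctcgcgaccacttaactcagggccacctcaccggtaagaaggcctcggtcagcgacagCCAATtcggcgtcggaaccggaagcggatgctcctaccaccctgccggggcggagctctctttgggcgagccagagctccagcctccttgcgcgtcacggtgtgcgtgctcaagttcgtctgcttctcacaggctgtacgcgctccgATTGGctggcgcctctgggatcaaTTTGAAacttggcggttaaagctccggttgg
Kif11: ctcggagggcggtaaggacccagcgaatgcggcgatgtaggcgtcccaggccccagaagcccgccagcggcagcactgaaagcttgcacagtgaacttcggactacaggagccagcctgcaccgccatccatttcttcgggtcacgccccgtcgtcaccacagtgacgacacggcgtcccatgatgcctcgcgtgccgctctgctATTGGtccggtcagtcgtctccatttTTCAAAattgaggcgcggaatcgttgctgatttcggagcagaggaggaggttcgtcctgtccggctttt
Kif23: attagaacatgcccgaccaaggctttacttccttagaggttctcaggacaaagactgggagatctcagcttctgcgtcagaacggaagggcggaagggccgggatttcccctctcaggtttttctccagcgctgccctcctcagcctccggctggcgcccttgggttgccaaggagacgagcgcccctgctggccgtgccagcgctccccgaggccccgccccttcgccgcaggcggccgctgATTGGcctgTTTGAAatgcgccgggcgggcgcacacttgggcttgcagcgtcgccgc
Kif5c: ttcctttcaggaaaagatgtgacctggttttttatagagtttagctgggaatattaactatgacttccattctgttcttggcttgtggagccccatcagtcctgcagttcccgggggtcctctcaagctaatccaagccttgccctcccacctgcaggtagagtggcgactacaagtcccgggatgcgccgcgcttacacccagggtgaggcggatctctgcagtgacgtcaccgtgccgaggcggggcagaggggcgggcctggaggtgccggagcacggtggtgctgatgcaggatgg
Dync1h1: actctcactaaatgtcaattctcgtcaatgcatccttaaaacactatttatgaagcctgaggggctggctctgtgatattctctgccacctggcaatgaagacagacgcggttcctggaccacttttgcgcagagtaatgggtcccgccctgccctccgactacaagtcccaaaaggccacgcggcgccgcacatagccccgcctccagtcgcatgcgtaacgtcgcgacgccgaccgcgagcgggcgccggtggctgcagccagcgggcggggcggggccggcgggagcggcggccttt
Of the 12 mitotic kinesin genes of the rule, 11 had a window, Kif2b among them and Kif20a not. CHR letters were present in 9 of these 11 (81.8%), against 2 of 22 axonal motor genes with a window (9.09%) and 18.5% of 17491 protein-coding genes. CCAAT was present in 7 of the 11 mitotic genes, Kif2b included (63.6%), against 8 axonal genes (36.4%) and 42.3% of protein-coding genes. Both stood in 6 mitotic genes (54.5%) and in 0 axonal genes, beside 7.4% of protein-coding genes. A match of letters is a description and says nothing of binding, and the other 8 axonal genes had no window in the table.

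Kinesin-1, the main carrier of vesicles and mitochondria down the axon, is built from 2 heavy chains and 2 light chains. Among heavy chains, Kif5a, a gene of neurons, had 5715, 5025, 5292 and 5458 CPM in KO libraries 1 to 4 and 5488, 4269, 4922 and 4850 CPM in WT libraries 1 to 4. The KO libraries averaged 5372 ± 290 CPM and the WT libraries 4882 ± 499 CPM (SD, n = 4 each), and the groups overlapped. Kif5c, its neuronal partner gene, averaged 1382 ± 57.6 CPM in KO and 1349 ± 118 CPM in WT libraries. Kif5b, the heavy chain made in most cell types, had 440, 382, 362 and 409 CPM in KO libraries and 366, 339, 337 and 352 CPM in WT libraries. KO libraries 1, 2 and 4 lay above every WT library, and KO library 3 lay below WT library 1. All 3 heavy chains had positive log2 fold changes, of 0.14 for Kif5a, 0.04 for Kif5c and 0.19 for Kif5b (95% interval 0.04 to 0.34). However, Kif5c turned to -0.0064 without WT library 3. Kif5a was 0.08 without WT library 2 and 0.2 without WT library 1. The edgeR test gave Kif5b an unadjusted p of 0.0154 and an adjusted p of 0.999. Without KO library 1 the Kif5b value was 0.14 and the unadjusted p 0.063. Without KO library 3 they were 0.23 and 0.00647. The adjusted p of Kif5b was 0.575 or more in every setting. Several cell types had markers mostly above 0 as well, and others lay near or below 0. Spiny neuron markers had 5 of 8 above 0 (median 0.016), and neuroblast and progenitor markers 2 of 6 (median -0.037). Cortical glutamatergic markers had 0 of 4 above 0 (median -0.187), ependymal markers 0 of 6 (median -0.216) and choroid plexus markers 0 of 4 (median -2.06). Of oligodendrocyte markers, 5 of 5 had positive log2 fold changes, with a median of 0.203, and their sum was 9745, 8195, 8359 and 9743 CPM in KO libraries 1 to 4 and 9218, 6747, 8060 and 7279 CPM in WT libraries 1 to 4. WT library 2 had the lowest marker sum and the lowest Kif5a level, and KO library 1 the highest of both. Blood markers had 5 of 5 above 0 (median 0.48), with sums of 88.9 to 156 CPM in KO and 56 to 93.2 CPM in WT libraries. Thalamic neuron markers had 5 of 5 above 0 (median 0.364). Their sums were 254, 153, 144 and 398 CPM in KO libraries and 169, 233, 144 and 162 CPM in WT libraries. KO library 4 held the highest thalamic sum, and KO libraries 2 and 3 lay below WT library 1. Endothelial markers had 3 of 4 above 0 (median 0.262), with 181 to 223 CPM in KO and 151 to 198 CPM in WT libraries. Astrocyte markers had 4 of 5 above 0 (median 0.146), with 1335 to 1537 CPM in KO and 1235 to 1460 CPM in WT libraries, and microglial markers 4 of 4 (median 0.089), with 251 to 288 CPM in KO and 239 to 273 CPM in WT libraries. The part of any of these cell types in the kinesin-1 values was not tested. In bulk tissue, fewer cells of a type and less RNA per cell cannot be told apart.

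By length, Kif5a made up 75.9 ± 0.996% of the heavy chain level in KO and 74.9 ± 2.18% in WT libraries. Kif5c took 19.1% in KO and 20.4% in WT libraries, and Kif5b 4.93% in KO and 4.71% in WT libraries. Kif5a alone made up 38.4 ± 1.55% of the summed CPM per kb of the 30 axonal motors in KO and 35.9 ± 2.84% in WT libraries.

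**Figure D3:**
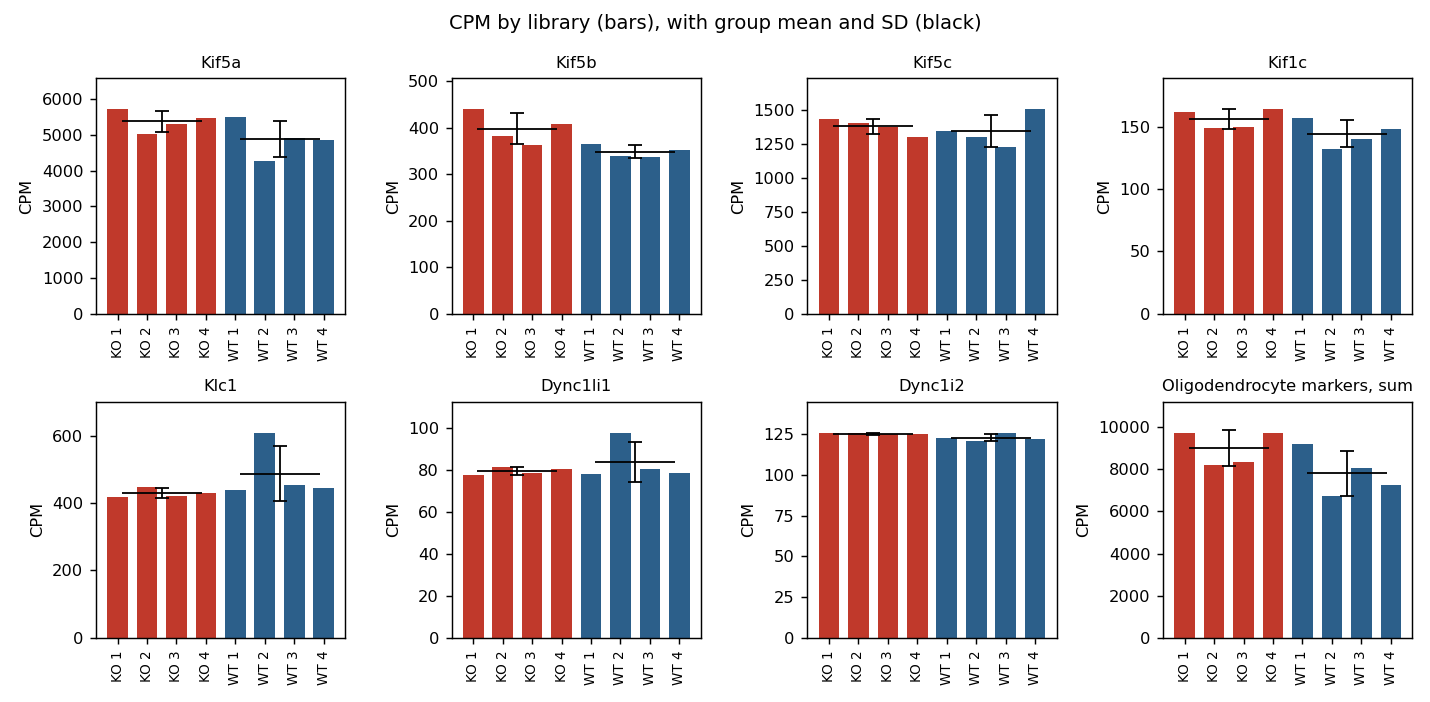
CPM in each KO and WT library for 7 motor genes and for the summed oligodendrocyte markers, each panel with its own axis and with group means and SD. Kif5b KO libraries lie between 362 and 440 and WT libraries between 337 and 366, and the Klc1 value of WT library 2 is 610.

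The light chains, which bind cargo, all had fold changes below 0 in the fit of 8 libraries, and none passed the test. Klc3 turned to 0.04 without WT library 4, and without both libraries numbered 4 Klc3 was 0.07 and Klc2 0.02. Klc4, at -0.01 in the fit of 8 libraries, ran from -0.04 to 0.04 over all settings, and only Klc1 stayed below 0. Klc1, the most abundant, had 419, 450, 423 and 430 CPM in KO libraries 1 to 4 and 440, 610, 455 and 447 CPM in WT libraries 1 to 4. WT library 2 was far above the rest, and the other WT libraries overlapped the KO range. The log2 fold change was -0.18, with an unadjusted p of 0.0844 in the edgeR test, and -0.06 with a p of 0.354 without WT library 2. Without WT library 1 the log2 fold change was -0.23. Cortical glutamatergic markers summed to 778, 1075, 992 and 648 CPM in KO and to 877, 1313, 1061 and 1116 CPM in WT libraries, again highest in WT library 2, and their part was not tested. Klc2 had 213, 237, 235 and 199 CPM in KO libraries and 216, 225, 232 and 253 CPM in WT libraries. Klc4 held 23.1 to 27.1 CPM in KO and 24.2 to 26.8 CPM in WT libraries, and Klc3, whose exons overlap the opposite-strand gene Ercc2, 3.58 to 4.11 CPM in KO and 3.42 to 5.37 CPM in WT libraries. By exon length, Klc1 made up 61.7% of the light chain level in KO and 63.4% in WT libraries. By the longest transcript its share was 67.5% in KO and 69% in WT libraries.

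The other 12 cargo kinesins had a median log2 fold change of -0.012, with 4 above and 8 below 0, and all 12 intervals lay inside 1.5-fold. Kif1a and Kif1b, the kinesin-3 motors of synaptic vesicle precursors and mitochondria, were the most abundant. Kif1a had 1781, 1880, 1846 and 1807 CPM in KO libraries 1 to 4 and 1919, 1885, 1756 and 1875 CPM in WT libraries 1 to 4. Kif1b had 1085, 1148, 1079 and 1092 CPM in KO and 1114, 1150, 964 and 1186 CPM in WT libraries. Kif1c, the kinesin-3 gene found in many cell types, averaged 156 ± 8.21 CPM in KO and 144 ± 10.7 CPM in WT libraries, with a log2 fold change of 0.12. KO libraries 4 and 1 and WT library 1 held its highest values, and the groups overlapped. The kinesin-2 motors Kif3a and Kif3b, which pair with each other, held 116 to 128 and 83.9 to 94.9 CPM in KO libraries and 113 to 132 and 82.4 to 105 CPM in WT libraries. Kif3c held 244 to 262 CPM in KO and 241 to 272 CPM in WT libraries, and Kif17, a motor of dendrites and cilia, 44.3 to 52.3 CPM in KO and 48 to 53 CPM in WT libraries. Kif3c overlaps other exons on the opposite strand over 3205 bases, and no source used here says whether reads were counted by strand. Shorter overlaps of this kind also held for other members, among them Dync1h1 (451 bases), Klc2 (439 bases) and Kif5b (324 bases). Kif21a and Kif21b, kinesin-4 motors that slow microtubule growth, held 229 to 237 and 97.8 to 113 CPM in KO and 204 to 249 and 103 to 114 CPM in WT libraries. Kif13a, Kif13b and Kif16b, kinesin-3 motors of endosomes, had mean levels per length of 5.99, 4.3 and 2.09 CPM per kb over the 8 libraries, the lowest of this class.

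Cytoplasmic dynein 1 did not pass the test in any of its 5 subunits, and all 5 intervals lay inside 1.5-fold. Dync1h1, the motor's heavy chain, had 500, 586, 589 and 562 CPM in KO libraries 1 to 4 and 562, 633, 484 and 639 CPM in WT libraries 1 to 4. The heavy chain was lowest in WT library 3 and highest in WT library 4, so the groups overlapped widely. Dync1i2, an intermediate chain, was the steadiest motor gene, with 126, 126, 125 and 125 CPM in KO and 123, 121, 126 and 122 CPM in WT libraries. The neuronal intermediate chain Dync1i1 held 99.5 to 111 CPM in KO and 103 to 114 CPM in WT libraries. By exon length it made up 65.9% of the 2 intermediate chains in KO and 67% in WT libraries. By the longest transcript its share was 58.2% in KO and 59.3% in WT libraries. The light intermediate chain Dync1li2 held 337 to 355 CPM in KO and 319 to 359 CPM in WT libraries. Dync1li1 had 77.6, 81.7, 78.6 and 80.3 CPM in KO libraries and 78.1, 97.8, 80.5 and 78.8 CPM in WT libraries, with WT library 2 apart from the other 7. Its log2 fold change was -0.08, and 0.0079 without WT library 2.

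Dynactin, the complex that couples dynein to cargo, had 0 calls among the 6 subunits named by the rule, with 3 above and 3 below 0 and a median log2 fold change of -0.002. Dctn1, the subunit p150 that binds microtubules, had 338, 367, 353 and 389 CPM in KO libraries 1 to 4 and 381, 400, 341 and 364 CPM in WT libraries 1 to 4. Dctn2, which shapes the shoulder of the complex, had 205, 213, 205 and 200 CPM in KO and 210, 212, 235 and 209 CPM in WT libraries, highest in WT library 3. Dctn3, which had the highest level per exon length of the class but lay below Dctn1 and Dctn2 per length of the longest transcript, held 65.6 to 76.1 CPM in KO and 61.5 to 78.3 CPM in WT libraries. Dctn4, Dctn5 and Dctn6, subunits of the pointed end, held 102 to 106, 83.8 to 88.9 and 51.3 to 58 CPM in KO libraries and 100 to 106, 85.9 to 91.5 and 50.9 to 57.9 CPM in WT libraries. The median coefficient of biological variation was 6.99% for dynactin and 7.01% for dynein 1, beside 7.39% and 7.48% for genes of like abundance.

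Over all 55 genes, the order of levels per length started with Kif5a at 734 CPM per kb (611 to 818 over the 8 libraries), followed by Kif1a at 198, Kif5c at 191, Klc1 at 113, Dctn3 at 65.7, Kif1b at 62.6, Dync1li2 at 56.9 and Dctn1 at 56.3. Kif5a lay above Kif1a in every library, while Kif1a and Kif5c overlapped. Of the 54 neighbouring pairs in that order, 12 had ranges over the 8 libraries that did not overlap, and 42 had ranges that did. Per kb of the longest transcript the first 4 were the same, followed by Kif1b at 108, Dctn1 at 84.9, Dctn2 at 82.5, Dync1li2 at 74.1, Klc2 at 71.4 and Dctn3 at 70.4 CPM per kb. The 55 genes together summed to 14193 to 14607 CPM in KO and 13322 to 14480 CPM in WT libraries.

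Axonal motors also varied with transcript length within 1 library. In WT library 3 all 15 of the longer axonal motors (longest transcript 4627 to 14342 bases) lay below their own mean over the 8 libraries, with a median deviation of -0.14 on the log2 scale. The 15 shorter ones (973 to 4523 bases) had a median deviation of 0.02 there. Across the 30 genes, which share the library, Spearman's rho between deviation and length was 0.11, 0.35, 0.12 and 0.15 in KO libraries 1 to 4 and 0.04, 0.12, -0.71 and 0.36 in WT libraries 1 to 4. The same value over 9966 protein-coding genes with at least 10 CPM was -0.15, 0.21, 0.03 and -0.07 in KO and -0.04, 0.17, -0.54 and 0.4 in WT libraries. The signs were those of the motors in KO libraries 2 and 3 and WT libraries 2, 3 and 4. They were opposite in KO libraries 1 and 4 and WT library 1. Dync1h1, Kif1b and Kif21a, all long, were lowest in WT library 3.

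**Figure D4:**
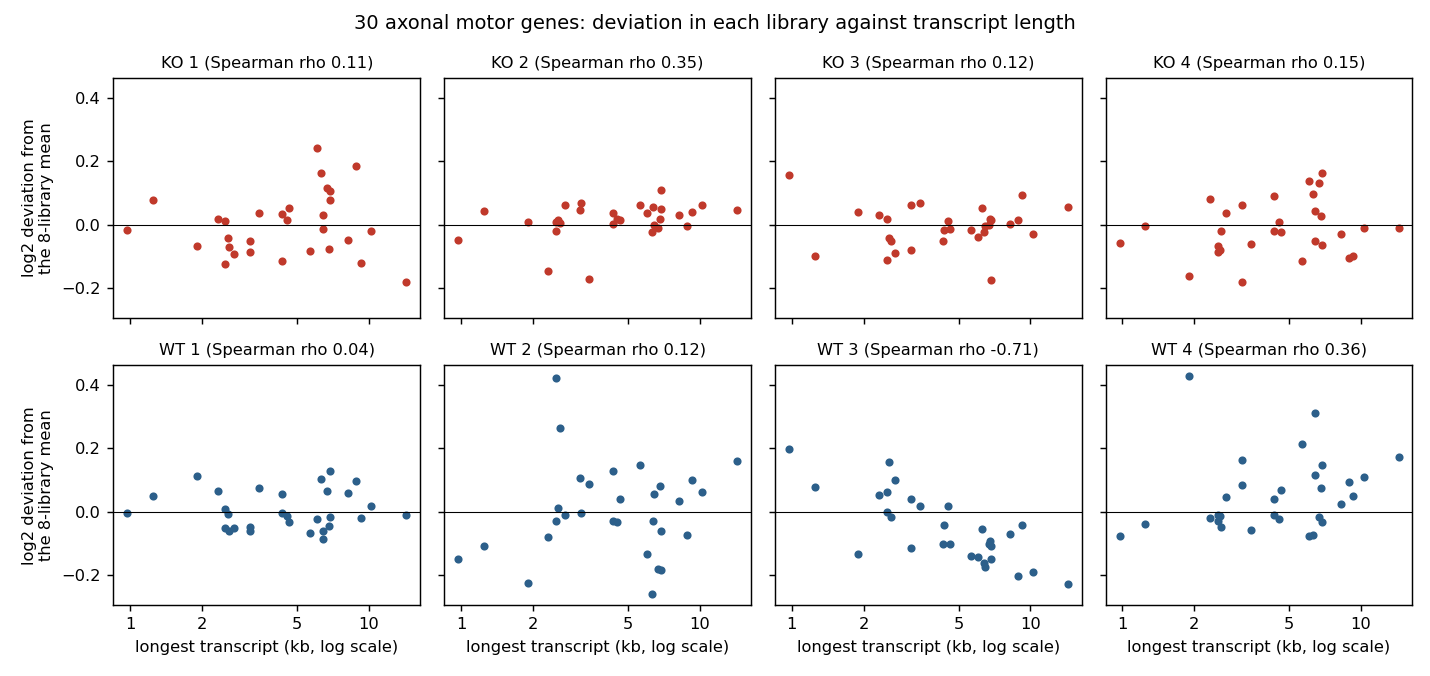
Deviation of each of the 30 axonal motors from its own mean over 8 libraries (log2) against the length of its longest transcript, in the KO and WT libraries. In WT library 3 all 15 longer genes lie below 0, against 4 of them in WT library 4.

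The ciliary motors were low, with a median of 1.1 ± 0.0168 CPM per kb in KO and 1.13 ± 0.129 CPM per kb in WT libraries. Dync2h1, the heavy chain of the dynein that returns cargo from the tip of the cilium, held 38.1 to 44.1 CPM in KO and 36.4 to 45 CPM in WT libraries, and its light intermediate chain Dync2li1 17.2 to 21 CPM in KO and 17.1 to 19.6 CPM in WT libraries. Kif27 and Kif9, genes of motile cilia, held 7.23 to 8.65 and 5.69 to 6.72 CPM in KO and 7.65 to 8.69 and 5.25 to 7.95 CPM in WT libraries. In WT library 4, where the choroid plexus markers were high, 5 of the 8 ciliary motors (Kif7, Kif9, Kif27, Dync2h1 and Dync2li1) had their highest WT value and the other 3 (Kif6, Kif19a and Kif24) their lowest. The part of choroid plexus RNA was not tested. Kif6 averaged 2.6 CPM in KO and 2.16 CPM in WT libraries, with a log2 fold change of 0.26 and an unadjusted p of 0.159 in the edgeR test. With 1 library left out the Kif6 value ran from 0.15 (without WT library 4) to 0.33 (without KO library 3). It was 0.06 without both libraries numbered 4. Kif19a, which trims ciliary microtubules, had 2.71, 2.76, 2.9 and 3.36 CPM in KO and 4.56, 2.86, 3.07 and 2.71 CPM in WT libraries. Kif7, a motor of Hedgehog signalling whose exons overlap an opposite-strand gene, averaged 2.61 ± 0.351 CPM in KO and 2.84 ± 0.212 CPM in WT libraries, and Kif24 0.41 to 1.22 CPM in KO and 0.74 to 0.989 CPM in WT libraries. All 6 ependymal markers had fold changes below 0, with sums of 17.2 to 23.6 CPM in KO and 22 to 25.9 CPM in WT libraries, and their part in the ciliary values was not tested.

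The mitotic kinesins were the lowest class. Their summed level was 9.97 ± 0.794 CPM in KO and 10.4 ± 0.7 CPM in WT libraries (SD, n = 4 each), and the 9 tested genes had 4 fold changes above and 5 below 0 with a median of -0.053. The intervals were wide: 1 of 9 lay inside 1.5-fold, against 30 of the 30 axonal motors. The median coefficient of biological variation was 18.7%, beside 18.9% for genes of like abundance.

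**Figure D5:**
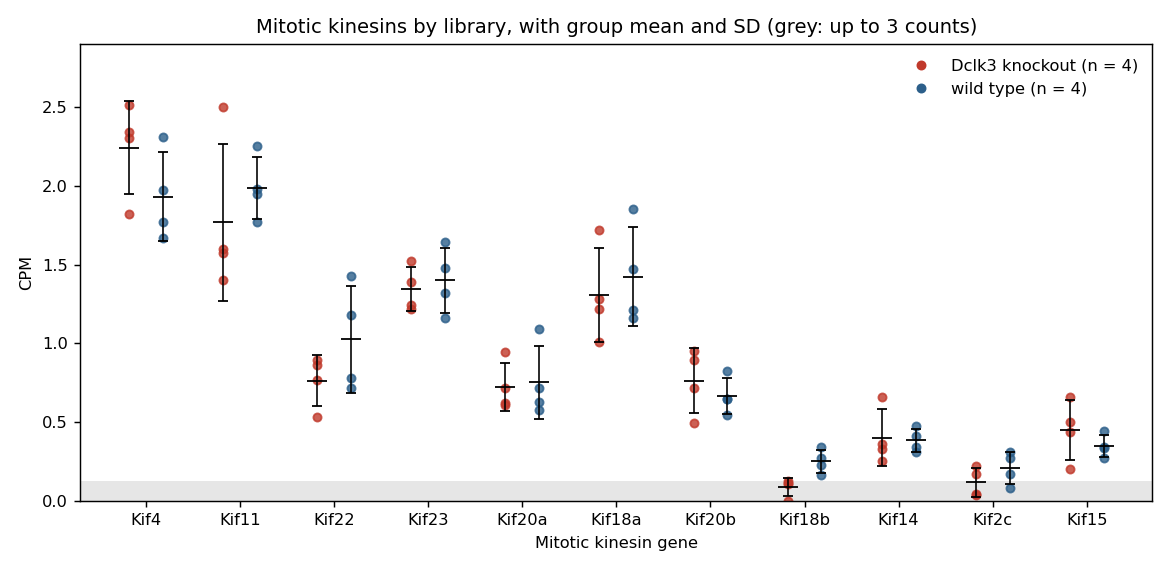
CPM of the 11 mitotic kinesins in each KO and WT library, with group mean and SD, and a grey band up to 3 counts in the shallowest library. Most genes overlap between KO and WT. Kif18b, which did not pass the filter, has all 4 KO libraries below all 4 WT libraries, at 0 to 4 counts in KO.

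Kif4 had 2.34, 2.51, 2.3 and 1.82 CPM in KO libraries 1 to 4 and 2.31, 1.77, 1.67 and 1.97 CPM in WT libraries 1 to 4, with a log2 fold change of 0.22, and its exons overlap Pdzd11 on the opposite strand. Kif11 had 1.6, 1.4, 2.5 and 1.57 CPM in KO and 1.77, 2.25, 1.98 and 1.95 CPM in WT libraries. Kif23 and Kif18a, motors of cytokinesis and of chromosome alignment, held 1.22 to 1.52 and 1.01 to 1.72 CPM in KO and 1.16 to 1.64 and 1.16 to 1.85 CPM in WT libraries. Kif22, a chromosome-arm motor, had 0.533, 0.862, 0.891 and 0.766 CPM in KO and 0.782, 1.18, 1.43 and 0.713 CPM in WT libraries. Its log2 fold change of -0.41 had an unadjusted p of 0.159 in the edgeR test. With 1 library left out the Kif22 value ran from -0.55 to -0.21 (without WT library 3). Kif20a, which shares exonic bases with Cdc23, had 0.943, 0.61, 0.719 and 0.62 CPM in KO and 0.578, 1.09, 0.716 and 0.63 CPM in WT libraries, and the log2 fold changes of Kif20b, Kif14 and Kif15 were 0.20, 0.11 and 0.33. With 1 library left out they ran from 0.09 to 0.35 for Kif20b, from -0.28 to 0.27 for Kif14 and from 0.1 to 0.61 for Kif15, and from -0.38 to -0.06 for Kif11. Kif18b, which did not pass the filter, had 3, 3, 4 and 0 counts in KO libraries and 8, 8, 10 and 6 counts in WT libraries, 10 against 32 in all. Every KO library lay below every WT library, which held for 0.86% of all tested genes. The KO counts lay near the limit of 3 counts. Without the filter, the edgeR log2 fold change of Kif18b was -1.46, with an unadjusted p of 0.0142 and an adjusted p of 0.842. Kif2c, which removes tubulin from microtubule ends, had 1, 1, 6 and 6 counts in KO and 5, 3, 9 and 10 counts in WT libraries, and the same unfiltered fit gave -0.76, with an unadjusted p of 0.189.

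Mitotic genes outside the naming rule were tested in the same fit. Of 16 such genes, 13 were tested, with 6 above and 7 below 0 and a median log2 fold change of -0.066, and their sum was 28.6 to 30.8 CPM in KO and 27.9 to 38.6 CPM in WT libraries. Racgap1, which works in cytokinesis, was the most abundant, at 13.9 ± 0.676 CPM in KO and 16.4 ± 4.31 CPM in WT libraries, and held 22.6 of the 38.6 CPM in WT library 2. Cdk1, the kinase that starts mitosis, had 0.328, 0.323, 0.345 and 0.219 CPM in KO and 0.714, 0.365, 0.375 and 0.603 CPM in WT libraries. Every Cdk1 value in KO lay below every WT value, which held for 0.86% of all tested genes. The closest values were 0.345 CPM in KO library 3 and 0.365 CPM in WT library 2. Cdk1 had a log2 fold change of -0.74, an unadjusted p of 0.0392 and an adjusted p of 0.999 in the edgeR test. It was the 1 gene of the 13 with an unadjusted p under 0.05, where 3.76% of all tested genes had one. These levels are low, as 3 counts stood for 0.0822 to 0.123 CPM over the 8 libraries. Mki67, a marker of dividing cells, averaged 1.06 ± 0.137 CPM in KO and 1.17 ± 0.118 CPM in WT libraries. Neuroblast and progenitor markers summed to 72.8 to 92.5 CPM in KO and 81 to 86.5 CPM in WT libraries, and their part was not tested.

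Of the 6 remaining genes of the rule, Kif2a, a depolymerizing motor, held 65.2 to 74.3 CPM in KO and 66.1 to 79.7 CPM in WT libraries, and Kif1bp 136 to 147 CPM in KO and 135 to 150 CPM in WT libraries. Exons of Kif2a overlap the opposite-strand gene Dimt1 over 1229 bases, and those of Kif26b an opposite-strand gene over 909 bases. Kif26a, a kinesin without motor activity, had 9.8, 9.77, 8.45 and 10.4 CPM in KO and 12.5, 10.2, 10.5 and 10 CPM in WT libraries, with a log2 fold change of -0.17. Kif26b held 19.7 to 25.8 CPM in KO and 18.5 to 23.7 CPM in WT libraries. Kif28 and Kif12 did not pass the filter. Kif12 had a single count in 1 KO and 1 WT library, and Kif28 had 1, 2, 7 and 1 counts in KO and 2, 5, 6 and 5 counts in WT libraries. In the unfiltered edgeR fit their unadjusted p-values were 0.929 for Kif12 and 0.416 for Kif28.

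A wider set of transport genes had no call. It held adaptors, regulators, the kinesins Kifc1, Kifc2 and Kifc3, the dynein light chains and the dynactin subunits outside the rule (Actr1a, Actr1b, Actr10, Capza1, Capza2 and Capzb). Of its 61 genes, 55 were tested, with 25 above and 30 below 0, a median log2 fold change of -0.013 and 0 genes with an unadjusted p under 0.05. Kifc2 averaged 499 ± 48.9 CPM in KO and 536 ± 45.2 CPM in WT libraries, with a mean level of 132 CPM per kb. Ndel1, a dynein regulator, had 87.6, 87, 91.3 and 83 CPM in KO and 93.8, 99.9, 93.6 and 90.9 CPM in WT libraries, and the groups overlapped at KO library 3 and WT library 4. Its log2 fold change was -0.12, with an unadjusted p of 0.0525 in the edgeR test. Nde1, its paralogue, averaged 29.7 ± 4.28 CPM in KO and 25.5 ± 3.92 CPM in WT libraries. Dynlrb2, a dynein light chain of ciliated cells, averaged 1.04 ± 0.318 CPM in KO and 1.54 ± 0.668 CPM in WT libraries and was highest in WT library 4. Ppfia1, an adaptor of Kif1a, averaged 44.4 ± 2.94 CPM in KO and 41.4 ± 1.74 CPM in WT libraries.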

How the data were processed

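RNA sequencing of 8 striatal libraries (4 KO, 4 WT) was analysed from the gene counts that the authors deposited. Per the submitters' processing notes the build was mm10 and bcl2fastq 2.17.1.14 was used; no aligner, counter or strand setting is named there. Symbols and exon lengths came from GENCODE M21, which matched 31292 of 31417 IDs, and promoters from RefSeq. Genes were filtered with filterByExpr (minimum count 10), scaled by TMM and tested with edgeR 4.0.16 (quasi-likelihood, robust, two-sided, Benjamini-Hochberg over 16511 genes) in R 4.3.3, with DESeq2 1.42.0 and limma 3.58.1 as alternatives; the edgeR procedure was tested on simulated data. CPM are TMM-scaled counts relative to library size. Alternatives varied scaling, filter, test and libraries. Depth was 24441242 to 37145559 counts per library, and floors cover counting error only. In each class the text names the most abundant genes, those with the smallest p and every measured mitotic kinesin. The members, the lists and the named genes were chosen with earlier results of these data known.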

Additional observations from a re-analysis of the deposited data

Results flagged for a closer look

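In 6 of 102 groups of 4 libraries (5.88%), 1 library lay farther from its nearest neighbour than Dixon's 95% critical value allows, and chance gives about 1 in 20. Among KO libraries, Kif3c was low in library 1 (244 CPM), and library 4 was low for Dctn5 (83.8 CPM) and high for Kif26b (25.8 CPM). Among WT libraries, library 2 was high for Klc1 (610 CPM) and Dync1li1 (97.8 CPM), and library 3 was high for Dctn2 (235 CPM).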

How the results depend on the processing

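No motor gene passed the threshold under any of the 16 other settings, where the smallest adjusted p of a member was 0.575. Over all genes, 1 was called in the edgeR fit, 3 by DESeq2 (Dclk3, Malat1 and 1520401A03Rik), 3 without the KO and WT libraries numbered 4, and 1 to 2 with 1 library left out; without the filter the 1 gene called was Malat1. The replicate numbers gave no sign of pairing: deviations of same-numbered libraries correlated at 0.037, 0.021, 0.053 and -0.276, and those of differently numbered ones at -0.162 to 0.24. These few correlations cannot exclude a pairing. With the replicate block 1 gene and 0 members were called. With 1 library left out, class medians of the log2 fold change ran from -0.12 to -0.019 for light chains and from -0.07 to 0.008 for dynein 1 (0.008 without WT library 2), and without both libraries numbered 4 they were -0.01 and -0.004. Per kb of the longest transcript, the median level was 41.2 for light chains, 19.3 for other cargo kinesins, 39.1 for dynein 1, 57.2 for dynactin, 1.24 for ciliary motors, 0.201 for mitotic kinesins and 38.4 for axonal motors. Signs turned for Klc2 (0.02), Klc3 (0.07), Kif3b (0.0031) and Kif23 (0.02) without both libraries numbered 4, and for Kif14 (-0.02), Kif20a (0.06) and Kif23 (0.02) in limma-voom. Leaving out 1 library gave -0.0064 to 0.09 for Kif5c, -0.2 to 0.04 for Klc3, -0.11 to 0.0079 for Dync1li1, -0.25 to 0.03 for Kif19a, -0.29 to 0.02 for Kif18a, -0.28 to 0.27 for Kif14, -0.22 to 0.17 for Kif20a and -0.13 to 0.03 for Kif23. The causes were not tested. Among the values recomputed for a part of the members, 15 fold changes of single genes turned, some of them of the same gene. That part does not hold every member whose sign turned. Over all settings Dctn3 ran from -0.04 to 0.09, Kif16b from -0.09 to 0.1 and Kif9 from -0.09 to 0.17, for example. Other class medians, all close to 0, also changed sign: with 1 library left out they ran from -0.052 to 0.024 for other cargo kinesins, -0.025 to 0.009 for dynactin, -0.03 to 0.032 for ciliary motors, -0.13 to 0.027 for mitotic kinesins and -0.028 to 0.005 for axonal motors, and limma-voom gave 0.02 for mitotic kinesins. Depth limits what can be said of genes near 0.0822 to 0.123 CPM, the level of 3 counts.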
